A study of Mus musculus with 8 samples.

Results

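The Pbx, Meis and Pknox genes encode homeodomain proteins of the TALE class, the partners with which Hox proteins bind DNA. The genes described here are Pbx2, Pbx3, Pbx4, Meis1, Meis2, Meis3, Pknox1 and Pknox2, chosen by name, 8 of the 47311 mouse genes to which the measured transcripts were matched. RNA was measured in LSK cells of 8 mice, with 2 mice in each group. LSK cells are the bone marrow fraction that lacks lineage markers and carries Sca1 and Kit, and it holds the blood stem cells and the multipotent progenitors. The groups were old Asxl2 KO, young Asxl2 KO, old Asxl2 WT and young Asxl2 WT. Old mice were more than 1 year of age and young mice 8 to 12 weeks. All groups are whole LSK populations from mice otherwise described only by batch and litter, and each litter gave 1 KO and 1 WT mouse of one age and one batch. The labels do not say which part of Asxl2 was deleted or whether the deletion was limited to blood cells.

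Pbx proteins bind DNA together with Hox proteins and depend on Meis or Pknox proteins to stay in the nucleus. Meis proteins can join the same complexes on DNA, and Pknox proteins (also called Prep) compete with them for Pbx. In blood, Meis1 is needed to keep stem cells, and in mouse and human leukaemias Meis1, Pbx3 and Hoxa9 are often expressed together.

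The proteins share a loop inserted in the homeodomain, which gives the TALE class its name. The coding stretch around that loop is shown for each gene because it is the sequence that defines the family and sets its branches apart. Each line has 45 bases of the transcript, 5′ to 3′, and capitals mark the 9 bases that encode the inserted loop.
Pbx2: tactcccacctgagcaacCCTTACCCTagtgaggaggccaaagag
Pbx3: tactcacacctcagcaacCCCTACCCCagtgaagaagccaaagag
Pbx4: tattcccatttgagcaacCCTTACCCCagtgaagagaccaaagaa
Meis1: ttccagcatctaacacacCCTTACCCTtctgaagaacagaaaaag
Meis2: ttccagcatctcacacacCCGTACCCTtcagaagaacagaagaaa
Meis3: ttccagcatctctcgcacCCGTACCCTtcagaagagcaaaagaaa
Pknox1: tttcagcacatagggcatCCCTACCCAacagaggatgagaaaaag
Pknox2: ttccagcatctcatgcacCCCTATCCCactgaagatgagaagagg

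The stretches come from the GENCODE vM21 transcripts of the mm10 build. That of Pbx3 lies at chr2:34204816-34204860 on the minus strand, that of Pbx2 at chr17:34594637-34594681 on the plus strand and that of Pbx4 at chr8:69866523-69866567 on the plus strand, each within an exon. Those of the Meis and Pknox genes are joined across an intron. Over the 189 bases that encode the homeodomain, the Pbx genes were 79.4% to 82.5% identical to each other and the Meis genes 83.6% to 85.7%. Pknox1 and Pknox2 were 76.7% identical. Between branches, the Pbx genes were 45% to 52.9% identical to the Meis and Pknox genes. Assignment of reads to transcripts could mix genes only where they share sequence. Of 31-base words, Meis1 and Meis2 shared 2, Meis2 and Pknox2 shared 2, and no other pair of the 8 genes shared any.

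Asxl2 was measured first, as a check of the genotype labels. It measured 5.34 and 4.99 TPM in old KO, 4.64 and 5.63 TPM in young KO, 29.96 and 23.02 TPM in old WT and 30.8 and 23.7 TPM in young WT, where TPM is the abundance deposited for each transcript, scaled for its length and the depth of the library, here summed per gene. No KO library reached the lowest WT library, and the log2 change was -2.10 (SE 0.17, adjusted p = 0.000408). Library totals ran from 45737972 to 80388500 estimated counts. The markers of the gate were found in every library but moved with genotype. Kit was at 63.4 to 161 TPM in KO and 133 to 547 TPM in WT and fell by 0.88 on the log2 scale (edgeR adjusted p = 0.0438). Ly6a, which encodes Sca1, was at 266.5 to 661 TPM in KO and 150 to 276 TPM in WT and rose by 0.90 (edgeR adjusted p = 0.0321). Without litter 1, described below, neither call remained, and the log2 changes were -0.94 for Kit and 0.57 for Ly6a. The summed level of 7 stem cell markers ran from 277 to 606 TPM in KO and from 612 to 1078 TPM in WT, without overlap. The 2 libraries of litter 1, old KO 1 and old WT 1, stood apart in Xist, an RNA made from the inactive X chromosome, with 3.33 and 3.61 TPM against 0.016 to 0.0612 TPM in the other litters. Calls of the 8 genes, of the gene lists and of the markers are given below with their outcome without litter 1 where it ended them. The 2 mice of a group also differed in batch and litter, and nothing else is recorded of how their samples were taken.

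**Figure D1:**
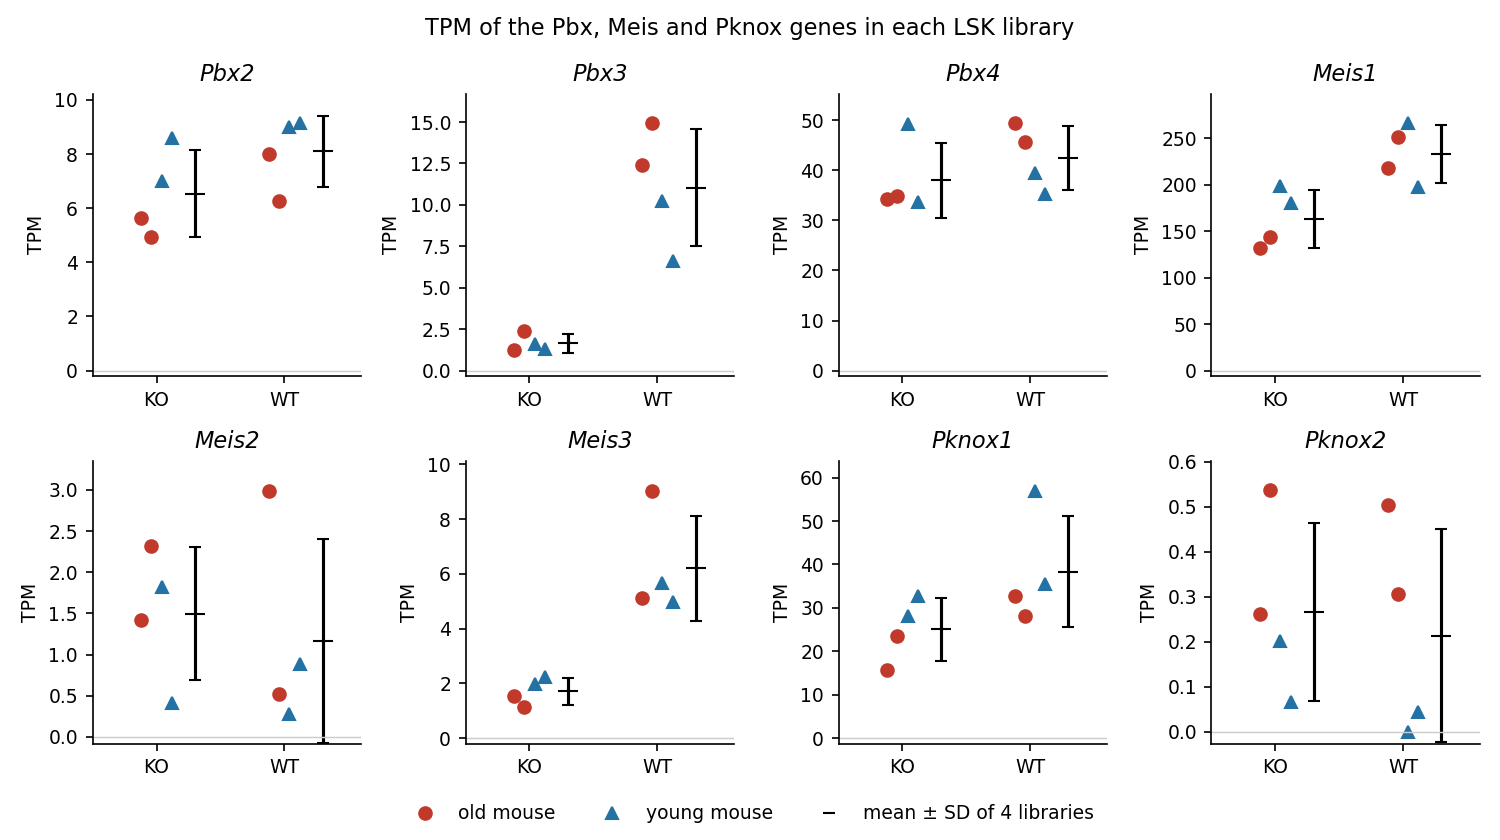
TPM of the 8 genes in each library (y axis, a separate linear scale per gene that includes 0), with the 4 KO libraries left of the 4 WT libraries. Circles are old mice and triangles young mice, and the bar gives mean ± SD. The KO and WT libraries of Pbx3 and of Meis3 do not overlap.

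The 8 genes differed widely in level. Meis1 was the most abundant by far and made up 66.2% to 70.6% of their summed TPM in each of the 8 libraries. In KO libraries Meis1 averaged 163.5 TPM, Pbx4 37.97 TPM, Pknox1 25.0 TPM and Pbx2 6.54 TPM, and no range over 4 libraries overlapped that of the next gene in this order. Meis3, Pbx3, Meis2 and Pknox2 followed at 1.71, 1.64, 1.495 and 0.267 TPM in KO, and each overlapped its neighbour. In WT libraries the order was Meis1 at 233 TPM, Pbx4 at 42.4 TPM, Pknox1 at 38.3 TPM, Pbx3 at 11.1 TPM, Pbx2 at 8.10 TPM, Meis3 at 6.20 TPM, Meis2 at 1.17 TPM and Pknox2 at 0.214 TPM. In WT, Pbx4 overlapped Pknox1, Pbx3 overlapped Pbx2, Pbx2 overlapped Meis3, and Meis2 overlapped Pknox2. By mean TPM Pbx3 thus had rank 6 of 8 in KO and rank 4 in WT.

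Comparing KO with WT over both ages, Pbx3 and Meis3 fell, and none of the 8 genes rose. Of all 25543 genes tested, 6.78% fell and 3.19% rose at an adjusted p under 0.05, or 2548 genes in all. That background rested on single libraries: leaving out any 1 of the 8 moved it by more than 1.5 times, to between 138 genes without old WT replicate 2 and 4787 without young WT replicate 2. Within batch 1, 117 genes rose and 105 fell. All 8 genes passed the filter on low counts. The 8 log2 changes had a median of -0.27, against 0.10 over all genes tested, and 6 of 8 were negative. Pbx3 and Meis3 were also the genes of the 8 whose 4 KO values all lay below the 4 WT values, a pattern found in 8.08% of all genes tested. Bulk RNA does not tell fewer cells of a type from less RNA per cell. The stem cell markers named above were also lower in KO, and their part in these changes was not tested.

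Among the Pbx genes, Pbx3, a partner of Hox proteins in blood, changed most. Pbx3 (ENSMUSG00000038718, mm10 chr2:34171457-34373142, minus strand) measured 1.24 and 2.41 TPM in old KO, 1.62 and 1.29 TPM in young KO, 12.4 and 14.9 TPM in old WT and 10.2 and 6.64 TPM in young WT. Every KO library was far below every WT library, and the KO mean was 14.8% of the WT mean. The estimated counts behind these values were 129 to 165 in KO libraries and 734 to 1241 in WT libraries. The log2 change was -2.66 (SE 0.21, adjusted p = 0.000304). Within batch 1 it was -2.65 and within batch 2 -2.75. The KO littermate was lower in 4 of 4 litters, with log2 ratios of TPM from -3.33 to -2.37.

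Pbx2, which is widely expressed, measured 5.66 and 4.92 TPM in old KO, 6.996 and 8.59 TPM in young KO, 8.00 and 6.27 TPM in old WT and 8.997 and 9.14 TPM in young WT. The KO and WT ranges overlapped, and the log2 change of -0.12 (SE 0.18) did not pass the test (adjusted p = 0.695). Pbx2 overlaps Gpsm3 on the same strand, at 39.9 to 96.8 TPM in KO and 48.7 to 95.9 TPM in WT, so some reads could belong to either gene.

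Pbx4, best known from the testis in mice, measured 34.2 and 34.8 TPM in old KO, 49.2 and 33.7 TPM in young KO, 49.4 and 45.6 TPM in old WT and 39.5 and 35.2 TPM in young WT. The groups overlapped, and the log2 change of -0.08 (SE 0.17) did not pass (adjusted p = 0.782). With the trend on transcript length removed it was -0.56 (adjusted p = 0.153). Most of this level came from transcripts that are not annotated as protein-coding. Protein-coding transcripts held 17.7% ± 3.91 of it in the KO libraries and 19.2% ± 2.98 in the WT libraries (mean ± SD over 4 libraries).

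Counted over protein-coding transcripts alone, Pbx3 was at 1.05 to 2.37 TPM in KO and 6.04 to 13.7 TPM in WT. Pbx2 was at 4.92 to 8.59 TPM in KO and 6.27 to 9.14 TPM in WT, and Pbx4 at 5.87 to 6.99 TPM in KO and 5.91 to 11.6 TPM in WT. Of the coding TPM of Pbx2, Pbx3 and Pbx4 together, Pbx3 made up 6.61% to 17.1% in KO libraries and 28.6% to 48.4% in WT libraries. The Pbx3 share was lower in every KO library than in any WT library.

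Among the Meis genes, Meis3 fell and Meis1 was lower without passing the test. Meis3 is known for roles in the hindbrain of frog embryos and in mouse pancreatic islets. Meis3 (ENSMUSG00000041420, mm10 chr7:16175090-16186504, plus strand) measured 1.52 and 1.121 TPM in old KO, 1.97 and 2.23 TPM in young KO, 5.12 and 9.04 TPM in old WT and 5.66 and 4.98 TPM in young WT. All 4 KO libraries lay below all 4 WT libraries, and the highest WT value came from old WT replicate 2. The log2 change was -1.87 (SE 0.37, adjusted p = 0.0191), and the KO mean was 27.6% of the WT mean. The KO littermate was lower in 4 of 4 litters, with log2 ratios from -3.01 to -1.16. The call rested on single libraries: the adjusted p was 0.066 without old KO replicate 2, 0.0539 without old WT replicate 2 and 0.0755 without litter 1, with log2 changes of -1.53, -1.5 and -2.0. Within batch 1 the log2 change was -1.35 (adjusted p = 0.176) and within batch 2 it was -2.46.

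Meis1 is needed by blood stem cells in mice and speeds leukaemia driven by Hoxa9. It (ENSMUSG00000020160, mm10 chr11:18879817-19018985, minus strand) measured 131 and 144 TPM in old KO, 199 and 179.9 TPM in young KO, 218 and 251.4 TPM in old WT and 266 and 198 TPM in young WT. Only young KO replicate 1 and young WT replicate 2 overlapped, by less than 1 TPM. The log2 change was -0.42 (SE 0.14, adjusted p = 0.0667), and the KO littermate was lower in 4 of 4 litters, with log2 ratios from -0.80 to -0.14. Meis1 passed in 8 of the 21 alternatives to this test, among them DESeq2 (adjusted p = 0.0209) and the sum of protein-coding transcripts alone (adjusted p = 0.0319), and the range over all of them was 0.00656 to 0.864. In the annotation 2 antisense transcripts overlap Meis1: Gm16140 at 15.6 to 24.7 TPM in KO and 16.4 to 20.5 TPM in WT, and Gm16141 at 8.81 to 15.4 TPM in KO and 9.16 to 23.3 TPM in WT. No strand setting is recorded for these libraries, so reads of Meis1 and of its antisense partners cannot be told apart where they overlap.

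Meis2, a regulator of limb and brain development, was low and uneven. It measured 1.42 and 2.32 TPM in old KO, 1.82 and 0.417 TPM in young KO, 2.99 and 0.518 TPM in old WT and 0.284 and 0.881 TPM in young WT. By TPM, the KO littermate was higher in litters 2 and 4, of batch 2, with log2 ratios of 2.16 and 2.68. It was lower in litters 1 and 3, of batch 1, with -1.07 and -1.08. By estimated counts litter 1 went the other way, with 282 in old KO replicate 1 and 147 in old WT replicate 1. Litter 3 had 58 in KO and 103 in WT. Meis2-219, a retained-intron transcript of 521 bases, held 1.89 of the 2.99 TPM of old WT replicate 1. Within batch 1 the log2 change fitted to counts was 0.14. The log2 change of 0.81 (SE 0.39) did not pass (adjusted p = 0.193).

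The level of Meis1 relative to Pbx3 followed from the changes given above and is not a separate result. The KO mean was 70.1% of the WT mean for Meis1 and 14.8% for Pbx3. Meis1 TPM over Pbx3 TPM was 106 and 59.7 in old KO, 123 and 140.0 in young KO, 17.6 and 16.8 in old WT and 26.1 and 29.8 in young WT. Every KO library had a higher ratio than any WT library.

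Pknox1, which competes with Meis proteins for Pbx and is needed for normal blood formation in mouse embryos, measured 15.7 and 23.6 TPM in old KO, 28.0 and 32.8 TPM in young KO, 32.8 and 28.1 TPM in old WT and 57.0 and 35.4 TPM in young WT. The highest value was young WT replicate 1, and the KO and WT ranges overlapped. The log2 change was -0.48 (SE 0.15, adjusted p = 0.0664), negative in 4 of 4 litters. It passed in 5 of the 21 alternatives, and the adjusted p ran from 0.02 to 0.799. Pknox2 was near the limit of detection, at 0.262 and 0.537 TPM in old KO, 0.203 and 0.0657 TPM in young KO, 0.504 and 0.307 TPM in old WT, and listed at 0 and at 0.0439 TPM in young WT. At no more than 37 estimated counts in a library, Pknox2 did not pass (adjusted p = 0.446). Its log2 change was -0.55 (SE 1.14) within batch 1 and 2.49 (SE 0.94) within batch 2, of opposite sign.

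**Figure D2:**
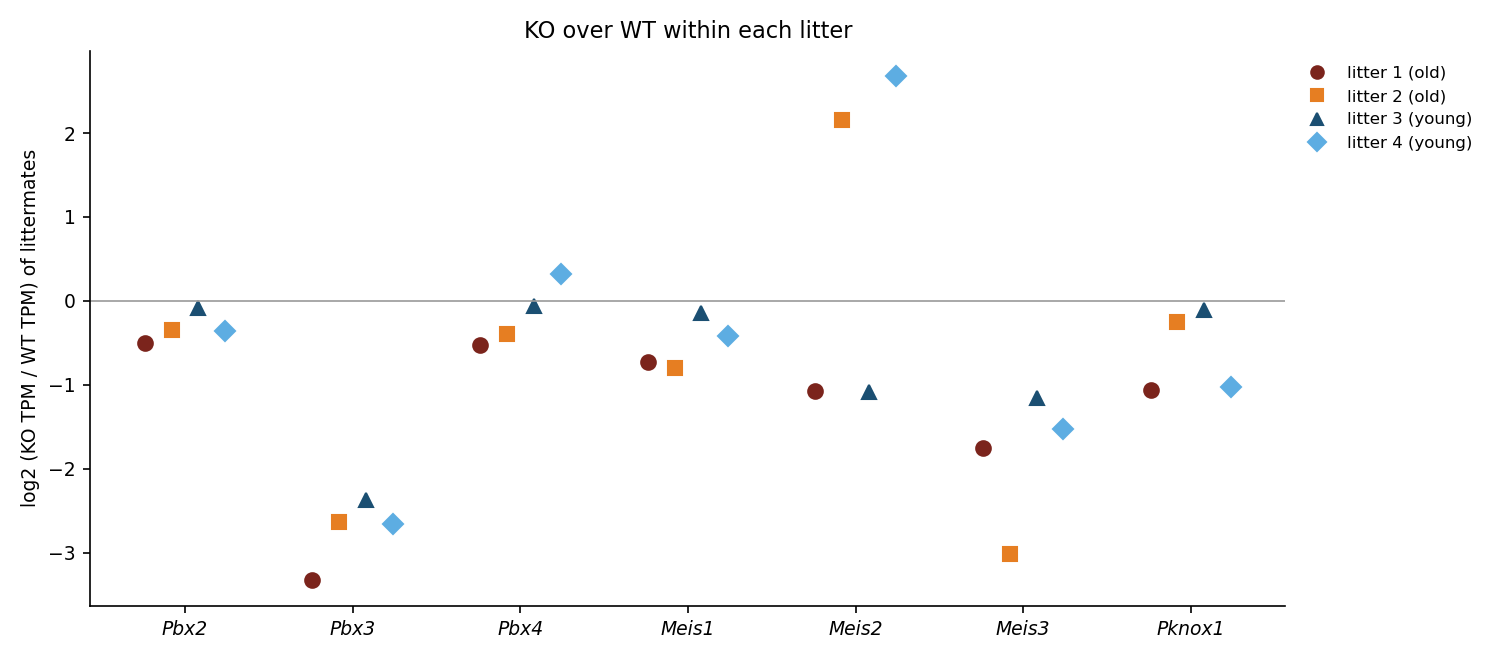
Log2 ratio of KO TPM to WT TPM of littermates (y axis) for 7 genes, with 1 point for each of the 4 litters. Pbx3 and Meis3 lie below -1 in every litter, and Meis2 takes opposite signs in litters 1 and 3 and in litters 2 and 4. By estimated counts, Meis2 was higher in the KO mouse of litter 1 as well. Pknox2 is left out because it was listed at 0 in 1 library.

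The comparison of KO with WT was then made at each age. In old mice Pbx3 fell, the 1 gene of the 8 to pass, with a log2 change of -2.84 (SE 0.31, adjusted p = 0.00824), where 0.446% of all genes tested fell. Without old WT replicate 2 the adjusted p of Pbx3 was 0.125, and without litter 1 it was 0.273, with log2 changes of -2.90 in both cases. Meis3 had -2.43 (SE 0.50, adjusted p = 0.053) and Meis1 -0.60 (SE 0.20, adjusted p = 0.123). Meis3 passed in 11 of 19 alternatives to this test, and its log2 change there ran from -3.40 to -1.76. Pknox1 had -0.48 (SE 0.23, adjusted p = 0.263).

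In young mice Pbx3 fell as well, and again it was the 1 gene of the 8 to pass, at -2.47 (SE 0.31, adjusted p = 0.0146), where 0.0548% of all genes tested fell. Its log2 change stayed between -2.64 and -1.92 in all 19 alternatives, but it passed in only 8 of them. With litter as a block the adjusted p was 0.0788. It was 0.191 without young KO replicate 1, 0.175 without young KO replicate 2, 0.081 without young WT replicate 1, 0.0661 without old WT replicate 1, 0.0938 without old WT replicate 2 and 0.178 without litter 1. Meis3 had -1.35 (SE 0.47, adjusted p = 0.477), Meis1 -0.25 (SE 0.20, adjusted p = 0.681) and Pknox1 -0.48 (SE 0.24, adjusted p = 0.542).

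Whether the genotype difference depended on age was tested directly, as the change in old mice minus the change in young mice. None of the 8 genes passed, and 1 of all 25543 genes tested did (0.00391%). By edgeR none of the 8 had an unadjusted p under 0.05, and by DESeq2 none passed either. The log2 difference was -0.37 (SE 0.41) for Pbx3, -1.08 (SE 0.67) for Meis3 and -0.35 (SE 0.28) for Meis1, each with an adjusted p of 1. For Pbx3 the difference was smaller than its SE, and for Meis3 and Meis1 it was larger than the SE without passing the test.

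**Figure D3:**
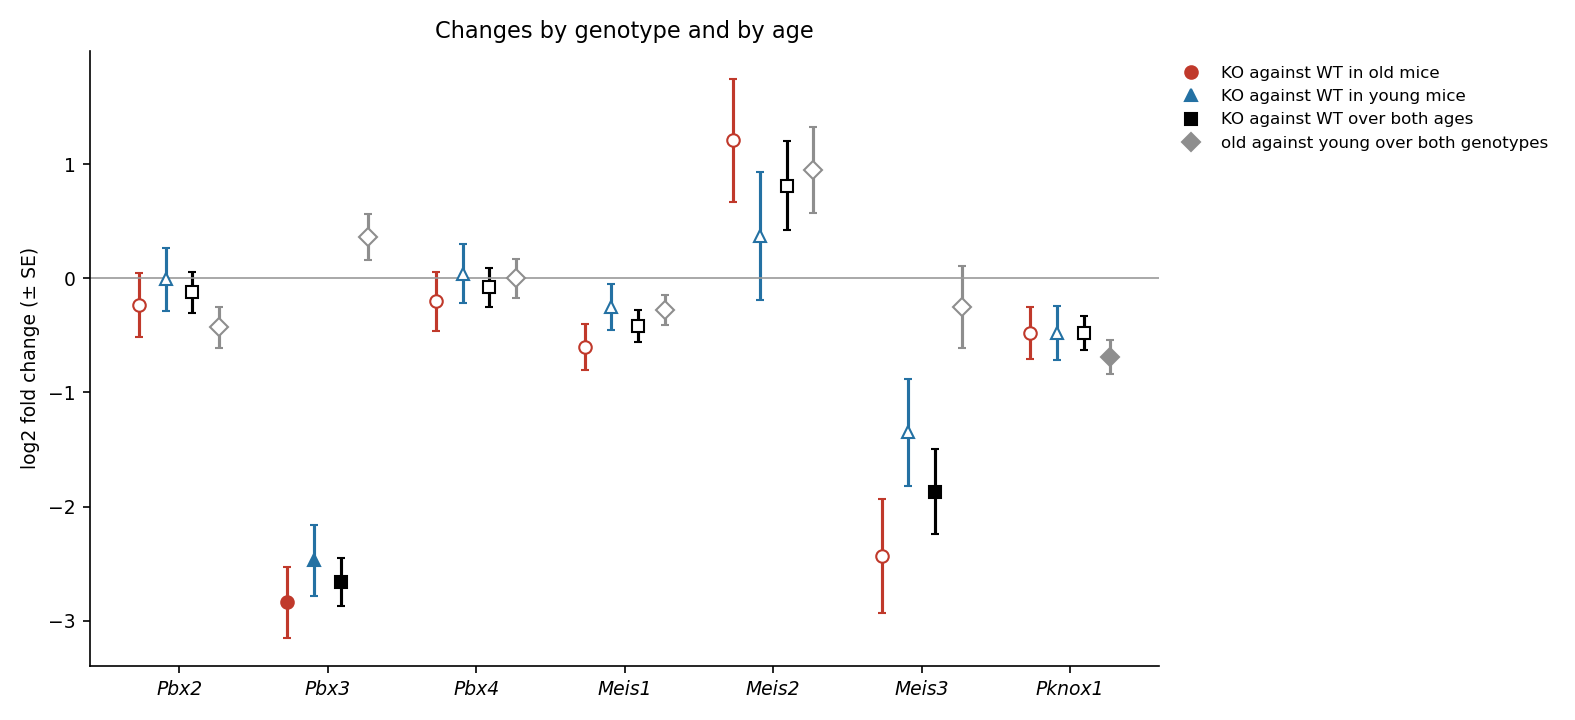
Log2 fold changes with their SE (y axis) of 7 genes for KO against WT in old mice, in young mice and over both ages, and for old against young over both genotypes. Filled symbols passed at an adjusted p under 0.05. Pbx3 is filled in all 3 genotype comparisons, Meis3 over both ages, and Pknox1 in the age comparison. Pknox2 is left out because of its low counts.

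In old against young mice over both genotypes, Pknox1 fell and no other gene of the 8 passed. The log2 change of Pknox1 was -0.69 (SE 0.15, adjusted p = 0.0259), where 9.61% of all genes tested fell (3563 called in either direction, and 44 to 4935 with single libraries left out). Old mice measured 15.7 to 32.8 TPM and young mice 28.0 to 57.0 TPM, so the ages overlapped. The call was lost without old KO replicate 1 (adjusted p = 0.076), old KO replicate 2 (0.082), young KO replicate 2 (0.121), old WT replicate 1 (0.056), young WT replicate 1 (0.0894) or litter 1 (0.413), and within batch 1 (0.0999) and batch 2 (0.0646). The log2 change of Pknox1 stayed between -0.78 and -0.48 in all 20 alternatives. Each litter held 1 age, so litter could not be a block here, and littermates were counted as separate mice. Pbx2 had -0.43 (SE 0.18, adjusted p = 0.112), Meis1 -0.28 (SE 0.13, adjusted p = 0.151), Pbx3 0.36 (SE 0.20, adjusted p = 0.192) and Meis2 0.95 (SE 0.38, adjusted p = 0.102). Within WT mice alone and within KO mice alone none of the 8 genes passed, where 0.0861% of all genes tested did in each. Unadjusted, edgeR gave 2 of the 8 a p under 0.05 in WT and 3 in KO, and DESeq2 called Pknox1 in KO. There DESeq2 called 3548 of all 25543 genes. In WT mice the age change of Pbx3 was 0.54 (SE 0.29) and in KO mice 0.17 (SE 0.30). These age comparisons share libraries with the genotype comparisons and are not independent of them.

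Pbx3 was next taken by transcript, to see whether one isoform carried the change. Of its 10 annotated transcripts, Pbx3-201 and Pbx3-202 held most of the RNA. Within the coding sequence of Pbx3-201 they differ by a cassette exon, absent from Pbx3-202, which changes the end of the reading frame. They also differ elsewhere, since Pbx3-201 has 2587 bases and Pbx3-202, though it lacks the exon, has 2734. The coding sequence has 434 codons with the exon and 351 without it. The exon has 113 bases and lies at mm10 chr2:34176749-34176861 on the minus strand. It is shown because it is the coding stretch of Pbx3-201 that Pbx3-202 lacks.
Pbx3-201 cassette exon: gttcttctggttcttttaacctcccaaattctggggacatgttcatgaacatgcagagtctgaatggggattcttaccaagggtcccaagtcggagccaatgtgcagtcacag

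Pbx3-201, which encodes the longer protein, measured 0.761 and 1.17 TPM in old KO, 0.694 and 0.641 TPM in young KO, 6.09 and 8.22 TPM in old WT and 5.42 and 3.85 TPM in young WT. Pbx3-202, which lacks the exon, measured 0.207 and 0.445 TPM in old KO, 0.619 and 0.308 TPM in young KO, 2.73 and 3.57 TPM in old WT and 2.95 and 1.48 TPM in young WT. Both isoforms were lower in every KO library than in any WT library. The log2 change of Pbx3-201 was -2.60 (SE 0.22, adjusted p = 0.0408), one of 8 transcripts to fall among the 62203 tested, or 0.0129%. That call was lost with litter as a block (adjusted p = 0.146) and without any 1 of the 8 libraries (0.0571 to 0.269), while its log2 change stayed between -2.69 and -1.90. Pbx3-202 had a log2 change of -2.57 (SE 0.31) and did not pass (adjusted p = 0.103).

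Pbx3-201 gave 50.7% ± 7.82 of Pbx3 TPM in the KO libraries and 53.8% ± 3.77 in the WT libraries (mean ± SD over 4 libraries), a difference within the spread between libraries (exact permutation test, two-sided, p = 0.514, adjusted p = 0.718 over the 8 shares tested). Of the minor transcripts, Pbx3-207, annotated for nonsense-mediated decay, was listed at 0 in 3 KO libraries and at 0.161 TPM in the fourth, and at 0.599 to 1.18 TPM in WT. Pbx3-205 was listed at 0 in all 4 KO libraries and at 0 to 1.14 TPM in WT. The error of dividing reads among transcripts is not part of these p-values.

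**Figure D4:**
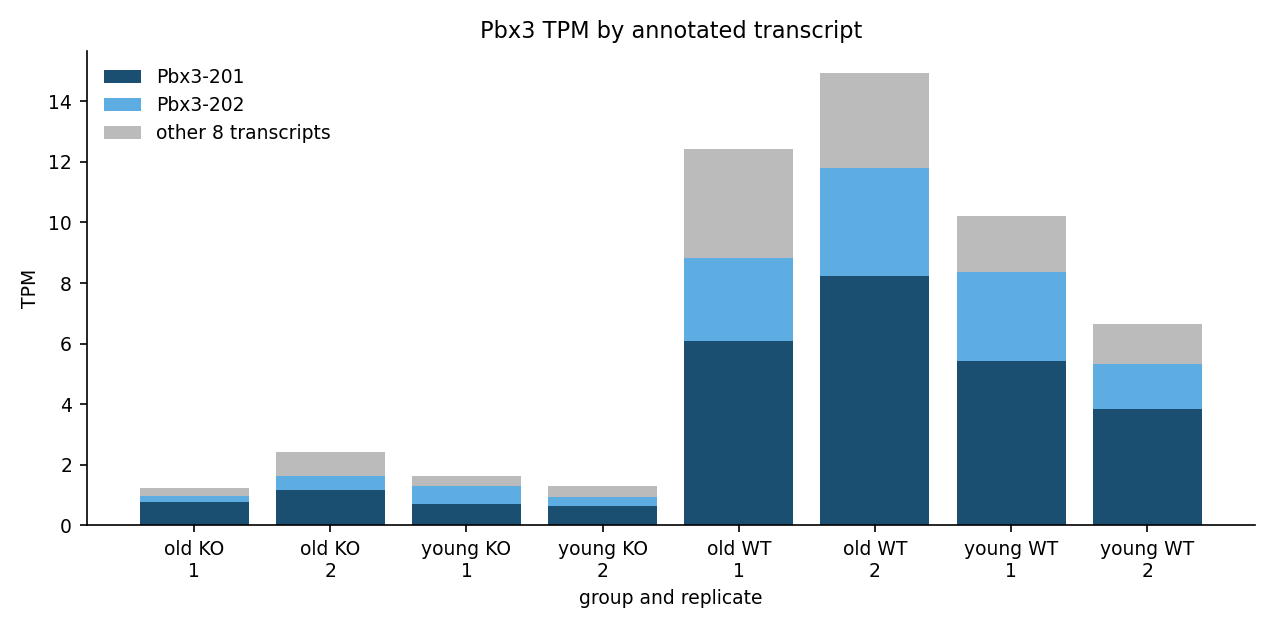
Pbx3 TPM in each library (y axis), stacked by annotated transcript, with the 4 KO libraries left of the 4 WT libraries. All KO bars end below 2.5 TPM and all WT bars above 6 TPM, and Pbx3-201 is the largest part of each bar.

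The other genes were also taken apart by transcript. The 8 genes have 79 annotated transcripts, of which 42 were tested and 1, Pbx3-201, passed. The main coding transcript of Meis1, Meis1-201, averaged 74.06 ± 18 TPM in KO and 114.6 ± 15.4 TPM in WT (SD, n = 4 each), with a log2 change of -0.42 (SE 0.12, adjusted p = 0.179). Meis1-203, annotated as a processed transcript without a coding sequence, averaged 55.1 ± 6.76 TPM in KO and 64.0 ± 8.67 TPM in WT, with a log2 change of 0.01 (SE 0.16, adjusted p = 0.975). Meis1-203 made up 38.4% and 34.6% of Meis1 TPM in old KO, 32.5% and 30.8% in young KO, 29.2% and 30.4% in old WT and 22.0% and 29.1% in young WT. All KO shares lay above all WT shares. The exact permutation test gave p = 0.0286, two-sided, the smallest it allows with 4 against 4, and 0.229 adjusted over the 8 shares tested. A single share could not have passed after this adjustment, even with complete separation. This transcript was chosen after its values were seen. Meis3 is spread over a coding transcript, Meis3-201, at 0.665 ± 0.508 TPM in KO and 2.51 ± 0.987 TPM in WT, and a retained-intron transcript, Meis3-202, at 0.286 ± 0.0335 TPM in KO and 1.72 ± 0.501 TPM in WT. Neither passed on its own (adjusted p = 0.263 and 0.14).

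Promoters were looked up for the 8 genes, and 5 matched the RefSeq table of the GRCm38.p6 assembly (Pbx2, Pbx4, Meis1, Meis2 and Meis3). The stretches of Meis1 and Meis3, the most abundant gene and one that fell, are shown from 250 bases before to 50 bases after the start. Capitals mark the single match among them to the motifs searched on both strands: TGATNNAT (Pbx with Hox), TGACAG (Meis and Pknox) and TGTGGT (Runx).
Meis1: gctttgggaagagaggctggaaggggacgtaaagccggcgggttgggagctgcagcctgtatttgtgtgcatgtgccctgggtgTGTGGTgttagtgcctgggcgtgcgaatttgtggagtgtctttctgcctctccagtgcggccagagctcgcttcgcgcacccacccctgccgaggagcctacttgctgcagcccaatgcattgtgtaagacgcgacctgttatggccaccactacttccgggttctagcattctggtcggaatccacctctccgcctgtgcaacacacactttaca
Meis3: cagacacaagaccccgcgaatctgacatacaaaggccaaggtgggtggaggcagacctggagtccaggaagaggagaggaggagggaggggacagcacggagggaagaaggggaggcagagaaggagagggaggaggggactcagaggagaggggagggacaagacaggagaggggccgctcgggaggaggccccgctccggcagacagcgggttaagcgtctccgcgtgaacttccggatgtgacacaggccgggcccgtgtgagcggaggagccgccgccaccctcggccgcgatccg

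TGTGGT occurred in 16.8% of all 32851 promoters of this length, TGACAG in 19.2% and TGATNNAT in 8.8%. Pbx2, Pbx4, Meis2 and Meis3 held none of the motifs in this window.

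Genes with the most similar pattern over the 8 libraries were picked by the Pearson correlation of log2(TPM + 1), among 12371 protein-coding genes with a mean of at least 1 TPM. These values are a description, since all 8 libraries share the genotype difference. Nearest to Pbx3 were Prnp (r = 0.993), Errfi1 (0.983), Gdpd1 (0.981), Esam (0.979) and Perp (0.979). Prnp, which encodes the prion protein, was at 5.47 to 9.44 TPM in KO and 16.4 to 30.7 TPM in WT. Esam, an adhesion molecule of blood stem cells and endothelium, was at 69.97 to 83.5 TPM in KO and 100.3 to 138 TPM in WT. Nearest to Meis3 were Slc46a1 (0.990), Cdkn1c (0.985), Ctsf (0.984), Plpp3 (0.983) and Hid1 (0.983). Cdkn1c, the cell cycle inhibitor p57, was at 31.2 to 47.1 TPM in KO and 80.1 to 107 TPM in WT. Nearest to Meis1 were Timp2 (0.993), Fbxo9 (0.991), Ccpg1 (0.990), Elmo3 (0.990) and Dennd2d (0.989), and Timp2, a protease inhibitor, was at 35.96 to 46.1 TPM in KO and 46.6 to 55.5 TPM in WT.

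**Figure D5:**
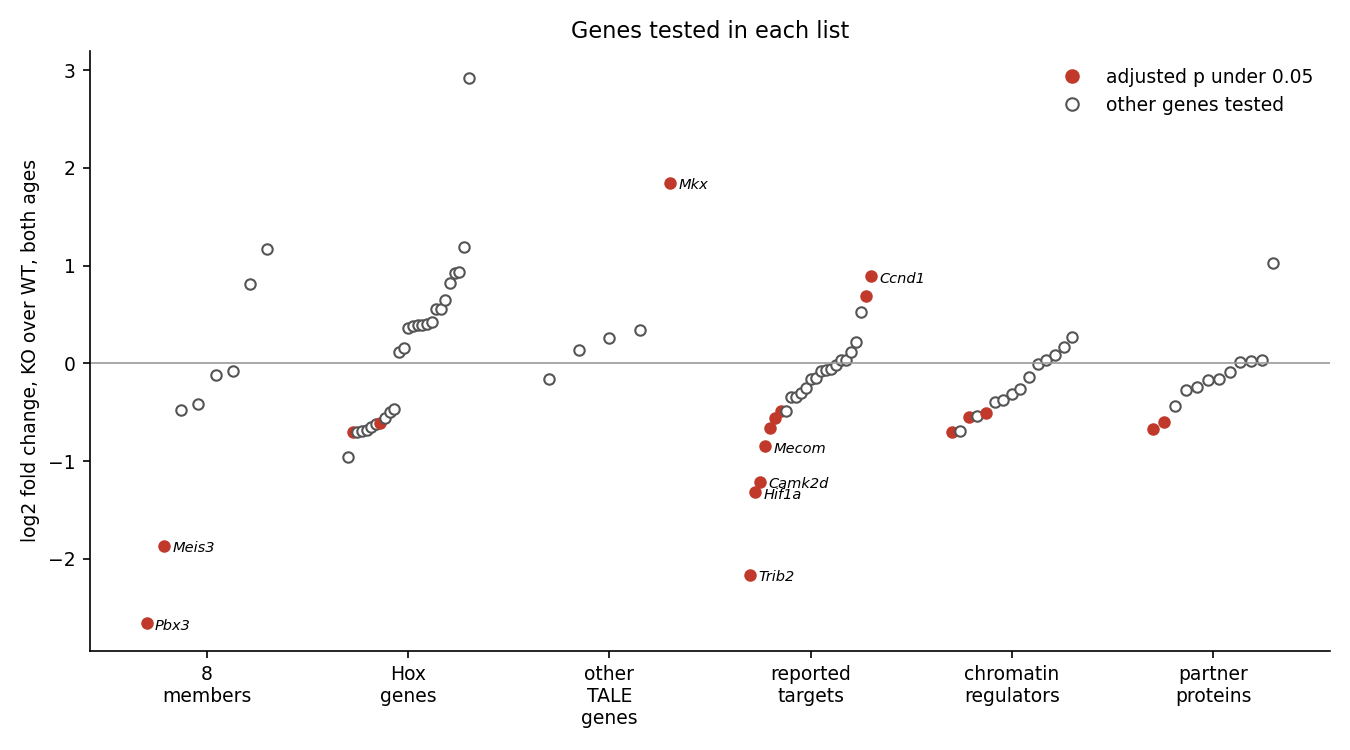
Log2 fold change of KO over WT over both ages (y axis) for the 8 genes and for each tested gene of 5 lists of genes around them, ordered by value within a list. Filled red points passed at an adjusted p under 0.05, and those with a log2 change of at least 0.8 in size are named. Pbx3 and Trib2 lie lowest among the points that passed.

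Genes that work with the Pbx, Meis and Pknox proteins were taken from lists. Of 39 Hox genes, whose proteins bind DNA with Pbx and Meis, 27 were tested and 2 fell in KO against WT over both ages, with none higher. In that comparison 6.78% of all genes tested fell and 3.19% rose, so the Hox count was near the share over all genes. Hoxa9, the Hox protein most often paired with Meis1 in leukaemia, averaged 102 ± 39.7 TPM in KO and 174 ± 17.6 TPM in WT (SD, n = 4 each), with a log2 change of -0.70 (SE 0.16, adjusted p = 0.0266). Hoxa10, its neighbour in the cluster, averaged 37.6 ± 12.7 TPM in KO and 59.6 ± 8.25 TPM in WT, at -0.61 (SE 0.17, adjusted p = 0.0487). The median over the tested Hox genes was 0.36, against 0.10 over all genes tested, and it differed with level. Of the 10 tested Hox genes with a mean of at least 1 TPM, 8 were negative, at -0.96 to -0.47, and their median was -0.62. The 17 below 1 TPM had a median of 0.42. This split was made after the values were seen. Of 12 other TALE genes, 5 were tested and Mkx, a regulator of tendon development, rose by 1.85 (SE 0.50, adjusted p = 0.0401). Its level was low, at 0.491 to 2.14 TPM in KO and 0.248 to 1.03 TPM in WT.

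Of 25 genes reported elsewhere as bound or regulated by Meis1, Pbx or Hoxa9 in blood cells, all were tested. Of them 7 fell and 2 rose, with a median log2 change of -0.16, where 6.78% of all genes tested fell and 3.19% rose. Trib2, a pseudokinase linked to leukaemia with Meis1, was at 0.813 to 2.12 TPM in KO and 4.12 to 7.66 TPM in WT, with a log2 change of -2.16 (SE 0.27, adjusted p = 0.00455). Hif1a, the hypoxia-response factor, was at 7.11 to 19.05 TPM in KO and 23.9 to 55.4 TPM in WT, at -1.32 (SE 0.17, adjusted p = 0.0048). Camk2d, a calcium-dependent kinase, was at 11.1 to 19.15 TPM in KO and 30.9 to 58.7 TPM in WT, at -1.21 (SE 0.16, adjusted p = 0.00556). The KO and WT libraries did not overlap for these genes. Mecom, a stem cell transcription factor, fell by 0.85 on the log2 scale, the cytokine receptor gene Flt3 fell by 0.66, the kinase gene Syk fell by 0.56 and the transcription factor gene Myb fell by 0.49. The cell cycle genes Ccnd1 and Cdk6 rose, by 0.89 (SE 0.20) and 0.69 (SE 0.15). Mecom and Hlf are in the stem cell marker list as well. Flt3, the receptor that Meis1 and Hoxa9 are reported to raise, averaged 185 ± 79.9 TPM in KO and 316 ± 119 TPM in WT.

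Of 18 chromatin regulators of Hox genes and Meis1, 15 were tested, 3 fell and none rose, where 6.78% of all genes tested fell. Bmi1, a Polycomb protein of stem cells, fell by 0.70 on the log2 scale, Men1 (menin, which brings the Mll complex to Hox and Meis1) fell by 0.51, and Dot1l, which methylates histone H3 in transcribed genes, fell by 0.55. Of 14 partner proteins, 12 were tested, 2 fell and none rose, against the same share of all genes. Pbxip1, a protein that binds Pbx, averaged 26.9 ± 6.68 TPM in KO and 45.6 ± 2.42 TPM in WT, at -0.67 (SE 0.16, adjusted p = 0.0304). Crtc2, a coactivator, fell by 0.60 on the log2 scale. Of the 17 calls in these lists, 3, those of Trib2, Hif1a and Camk2d, remained without litter 1, where the adjusted p of the others ran from 0.0961 to 0.266. Of the same 17 calls, 9 remained with litter as a block, 6 with the trend on transcript length removed and the same 3 with each library left out in turn. The calls of Hoxa10, Mkx, Mecom, Myb, Syk, Dot1l, Pbxip1 and Crtc2 were lost with litter as a block, at adjusted p-values of 0.0795, 0.0672, 0.0595, 0.0555, 0.0683, 0.0809, 0.0519 and 0.0591. In old against young mice over both genotypes, 6 of the 27 tested Hox genes rose and 2 fell, and 1 of the 25 reported targets rose and 8 fell, where 4.34% of all genes tested rose and 9.61% fell. That balance was not stable: 2168 genes rose and 563 fell within batch 1, 69 rose and 46 fell without old KO replicate 1, and 14 rose and 6 fell without litter 1.

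Levels of cell type markers also differed between genotypes, and 20 markers passed the test in KO against WT over both ages. Of all genes tested, 6.78% fell and 3.19% rose in that comparison. Of 7 stem cell markers, 3 fell, Mecom and Fgd5 among them, and Slamf1 rose in KO. Of 5 erythroid markers, all 5 fell, with summed levels of 51.2 to 348 TPM in KO and 213 to 648 TPM in WT. Of 5 mast cell and basophil markers, Cma1, Tpsb2, Cpa3 and Ms4a2 fell, with sums of 32.8 to 126.6 TPM in KO and 49.3 to 121 TPM in WT. Of 5 lineage markers that the gate should remove, 2 fell, Itgam among them, with sums of 6.47 to 16.4 TPM in KO and 13.1 to 20.2 TPM in WT.

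Of 5 macrophage markers, Cd68, a lysosomal protein also found outside macrophages, rose. It measured 78.2 to 100.4 TPM in KO and 27.3 to 32.5 TPM in WT and made up most of the list's level. The other 4 macrophage markers did not pass, and their sum was 4.74 to 11.03 TPM in KO and 6.54 to 8.26 TPM in WT. Of 5 T and NK cell markers, Nkg7 rose, at 554.6 to 791 TPM in KO and 286.9 to 398 TPM in WT. The other 4, Cd3d, Cd3e, Cd3g and Trac, did not pass, and their sum was 0.792 to 14.9 TPM in KO and 1.19 to 6.01 TPM in WT, with the highest value in old KO replicate 2. Gp1bb rose among 5 megakaryocyte markers, and Col1a2 fell among 6 markers of stroma and endothelium, of which Cdh5 stayed below 0.1 TPM in all libraries. Mature neutrophil markers ran from 44.7 to 1446 TPM in KO and from 5.40 to 989 TPM in WT, and no marker of neutrophils or B cells passed. Without litter 1, 7 of the 20 calls remained, among them those of Cma1, Tpsb2, Cpa3, Cd68, Nkg7 and Col1a2. The part of these cell types in the levels of the Pbx, Meis and Pknox genes was not tested.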

How the data were processed

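PolyA RNA of LSK cells was amplified with a low-input kit, per the labels' protocols, and the submitters' processing notes name kallisto, mm10 and DESeq2 without versions. Per the file headers, the deposited tables hold estimated counts, TPM and effective length of 115088 transcripts in each library. By identifier 114200 matched GENCODE vM21 and were summed to 47311 genes. The unmatched 888 held 0.259% to 0.47% of a library's counts and were left out. Amplified reads without molecular identifiers are not independent molecules.

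Estimated counts were rounded, kept by filterByExpr (minimum count 10, total 15) and scaled by TMM. The quasi-likelihood F test of edgeR 4.0.16 (R 4.3.3) was run on them, and Benjamini-Hochberg adjustment covered all 25543 genes, with 0.05 as threshold. Comparisons over both ages or both genotypes used batch, age and genotype (4 residual degrees of freedom). All others used the 4 groups and batch (3). Alternatives used limma 3.58.1 (pseudocount 1 or 0.1), DESeq2 1.42.0 and a lowess trend on effective length. The edgeR test was also run on simulated counts of the 25543 genes, with KO against WT over both ages as the contrast. It recovered 100 of 100 genes changed by a log2 of 2, 69 of 100 changed by 1, and called 8 of 25343 unchanged genes. The simulated dispersion (spread between libraries) was 0.05, below the 0.134 estimated from the real counts. No batch or litter effect was simulated, and changed genes were drawn only from better-counted ones. These rates are therefore too favourable for the real data. Other tools were Python 3.11.15, pandas 2.3.3 and scipy 1.17.1.

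The 2 mice of a group differed far beyond counting error (chi-square per degree of freedom 85.6 to 265.2). The labels give 4 litters, each pairing 1 KO with 1 WT mouse. Deviations of littermates from their group means correlated at 0.06 in old and 0.12 in young litters. The fits with litter as a replicate block are given where they changed a call. They were possible only for the genotype comparisons, since each litter held 1 age.

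The 8 genes, the lists and the motifs were chosen with earlier results of these data known. The rule for names took every gene of a list that passed in KO against WT over both ages, the 5 genes most like Pbx3, Meis1 and Meis3, and the genes that overlap the 8, of which those with levels that could matter are named.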

Additional observations from a re-analysis of the deposited data

Results flagged for a closer look

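Within each genotype the highest and lowest of the 4 libraries were set against the others with Dixon's test, for 16 groups of the 8 genes, and 2 groups passed the 95% critical value for 4 samples. Chance gives about 1 in 20 such groups. Pbx4 was at 49.2 TPM in young KO replicate 1, against 33.7 to 34.8 TPM in the other KO libraries (ratio 0.931). WT ran from 35.2 to 49.4 TPM. In young KO replicate 1, Pbx4-203, a processed transcript of 281 bases, was at 12.09 TPM, against 2.12 to 3.19 TPM in the other KO libraries. The coding transcripts of Pbx4 summed to 5.87 TPM there, the lowest value in KO. Meis3 was at 9.039 TPM in old WT replicate 2, against 4.98 to 5.66 TPM in the other WT libraries (ratio 0.833). The fall of Meis3 in KO missed the threshold without that library, as given with its values.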

How the results depend on the processing

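Leaving Pknox2 aside, the log2 changes given for the 8 genes kept their sign in all alternatives but 4. Pknox2 was not in this count, and in KO against WT over both ages it had 1.17 with all libraries and -0.55 within batch 1. Pbx2 in KO against WT over both ages was 0.01 with protein-coding transcripts only, and Pbx4 was 0.02 without old KO replicate 2 (-0.17 to 0.02 with single libraries left out). Meis3 in old against young over both genotypes was 0.01 without old KO replicate 2 (-0.76 to 0.01 with single libraries left out) and 0.01 without litter 1, against -0.25 with all libraries. These values are near 0, and the cause was not tested.

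The number of the 8 genes called in KO against WT over both ages was 2. It was 4 by DESeq2, 4 without the filter on low counts, 3 with protein-coding transcripts, 0 by limma on log2(TPM + 1) without the filter, 1 within batch 1, 6 within batch 2, 1 without litter 1, and 1 to 5 with single libraries left out. Pbx3 was among the genes called in 20 of 21 alternatives. The count over all genes moved as well. It was 2548 of 25543 in the main fit and 5381 by DESeq2. It was 4237 of 42298 without the filter, 3219 of 16964 with protein-coding transcripts and 6 of 42298 by unfiltered limma. Within batch 2, with 1 mouse per group, more genes were called than in the main fit. Fewer were called within batch 1 and without litter 1. In old mice, 166 of all 25543 genes were called. That count was 3344 by DESeq2, 1553 or 1242 by limma with a pseudocount of 1 or 0.1, and 676 with the length trend removed. It was 2517 of 42298 without the filter and 1214 of 16964 with protein-coding transcripts. The number of the 8 genes called in old mice was 1. It was 3 by DESeq2, 3 without the filter, 3 by limma with either pseudocount, 2 with the length trend removed, 2 with protein-coding transcripts, 0 by unfiltered limma, 0 without the batch term, 0 without litter 1 and 0 to 3 with single libraries left out. In young mice the number was 1. It was 0 by each limma fit, 0 with litter as replicate block, 0 without the batch term, 0 without litter 1 and 0 to 1 with single libraries left out. In the genotype comparisons the litter block changed no other call of the 8 genes. The age comparisons could not be fitted with it, since each litter held 1 age.

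In old against young over both genotypes the number was 1. It was 2 by DESeq2, 2 without the filter, 0 by each limma fit, 0 without the batch term, 0 within each batch, 0 without litter 1 and 0 to 2 with single libraries left out. In KO mice alone the number was 0. It was 1 by DESeq2, 1 without the filter and 0 to 1 with single libraries left out. Of the Pbx3 transcripts 1 was called. It was 2 without the filter, 0 with litter as replicate block and 0 with any library left out. The fit with the length trend removed moved the median log2 change of all genes in KO against WT over both ages from 0.10 to -0.05. Where leaving out a library left a group with 1 mouse, that mouse was assumed to vary like the other groups. The fits of the lists and markers without litter 1 were added after seeing the data. Pknox2, at 0 to 37 estimated counts, and the lowest Meis2 and Pbx3 transcripts are limited by depth.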
